A study of Mus musculus with 30 samples.

Results

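These 10 genes, used as markers of reactive astrocytes, were followed across mouse brains with 2, 1 or 0 intact copies of Tmem106b: Gfap, Vim, Serpina3n, Lcn2, Steap4, Cd44, Aqp4, S100b, Sox9 and Timp1. They were found by gene symbol, and all 10 were present, once each, among the 34871 genes of the deposited table. The samples were cerebral hemispheres of 30 mice aged 8 months, 10 Tmem106b +/+ (WT), 10 Tmem106b +/- (HET) and 10 Tmem106b -/- (KO). Each genotype held 6 mice of cohort 1 (3 females, 3 males) and 4 of cohort 2 (2 females, 2 males), so the genotypes could be compared inside each cohort. All groups shared the age, the tissue and a single RNA extraction, and each sample is a separate mouse. Neither the strain, nor the targeted stretch of Tmem106b, nor what distinguished the cohorts is named in the labels.

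Astrocytes answer injury, inflammation and disease with a change of state called reactivity, in which the cells enlarge and make more of the intermediate filament proteins GFAP and vimentin. Signals of the interleukin-6 family act through the transcription factor STAT3 to raise Gfap and other reactive genes, among them the acute-phase genes Serpina3n, Lcn2, Steap4 and Timp1. Aqp4, S100b and Sox9 are also made by resting astrocytes, so they report on the cells as well as on their state. Several of the genes are made by other cells too: S100b by oligodendrocytes, Vim by vascular and ependymal cells, and Timp1 and Cd44 by fibroblasts and immune cells.

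Tmem106b RNA followed the labels, with means of 9.17, 8.58 and 7.53 in WT, HET and KO on the scale of the deposited values, log2 RPKM, a measure per library size and gene length, normalized by conditional quantiles. Library medians lay between 2.82 and 2.91, while lower quartiles ran from -1.20 to -0.07, from -0.41 to -0.07 in females and from -1.20 to -0.29 in males, so values near 0 compare libraries poorly. Read depth is unknown because the table holds no counts, and precision was judged from the spread between mice. Markers of brain cells were looked at, though they do not tell one brain region from another. All 8 neuron markers and all 20 genes of homeostatic astrocytes had means above 0. Their summed levels were 14.50 to 14.61 and 14.61 to 14.75 (log2) over the 30 brains. The words rose and fell are kept for adjusted p values under 0.05 in limma, with Benjamini-Hochberg adjustment over the 23695 genes whose mean was above 0. That filter kept 9 members and left out Lcn2.

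Gfap and Steap4 were called in opposite directions, but never in the same genotype comparison. Their promoters are shown because they are the 2 of 8 member promoters with a match to the STAT motif TTCNNNGAA. The match was sought within 250 bases before to 50 bases after the RefSeq start site (build GRCm38.p6, 5′ to 3′ on the gene's strand, the match in capitals). Gfap lies on the minus strand, window chr11:102897151-102897450, and Steap4 on the plus strand, window chr5:7960222-7960521.
Gfap: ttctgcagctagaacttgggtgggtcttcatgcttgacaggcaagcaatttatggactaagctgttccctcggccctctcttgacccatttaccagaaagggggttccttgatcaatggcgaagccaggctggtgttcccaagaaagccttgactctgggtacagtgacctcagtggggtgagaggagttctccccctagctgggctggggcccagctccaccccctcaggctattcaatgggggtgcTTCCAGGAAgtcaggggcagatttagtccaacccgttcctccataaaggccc
Steap4: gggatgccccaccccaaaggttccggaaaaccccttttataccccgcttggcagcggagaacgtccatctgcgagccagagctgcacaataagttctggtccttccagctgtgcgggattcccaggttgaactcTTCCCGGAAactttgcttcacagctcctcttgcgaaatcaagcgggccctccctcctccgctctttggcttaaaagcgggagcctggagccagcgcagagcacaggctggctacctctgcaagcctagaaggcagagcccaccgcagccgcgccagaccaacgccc
The promoters of Vim, Serpina3n, Lcn2, Cd44, S100b and Timp1 had no match, and those of Sox9 and Aqp4 were not searched. In the 2 shown it begins 2 bases before the start site in Gfap and 116 bases before it in Steap4. Of 32851 promoters of this length, 8.30% hold the motif on either strand. Motifs of AP-1 (TGANTCA, in 7.81% of promoters), of NF-kB (0.411%) and of nuclear factor I (0.0365%) had no match in any of the 8 windows. A match is a run of letters, and binding was not measured here.

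Over both cohorts, KO brains held more Gfap RNA than WT and HET brains, and no other member was called in these comparisons. Gfap, the main intermediate filament of astrocytes, ran from 8.78 to 9.00 in WT (median 8.88), from 8.73 to 9.01 in HET (median 8.82) and from 8.92 to 9.40 in KO (median 9.10), 10 brains each. Of the 10 KO brains, 8 lay above every WT brain, and the WT and HET ranges overlapped almost fully. The difference was 0.22 ± 0.05 (log2 ± SE) for KO against WT, 16.6% on the linear scale (limma, adjusted p = 0.00967), and 0.26 ± 0.05 for KO against HET (adjusted p = 0.00533). HET against WT stood at -0.04 ± 0.05 (adjusted p = 0.924). Of 8 microglia markers 1 rose in KO against WT, the complement subunit C1qb (0.18, limma, adjusted p = 0.0158, list median -0.02). Cx3cr1 (-0.08) and Csf1r (-0.07) lay lower in KO and were not called (limma, unadjusted p = 0.0263 and 0.0182). Against HET 0 were called (limma, 3 at an unadjusted p under 0.05). The summed microglia level ran from 10.71 to 10.93 in KO, 10.63 to 10.86 in WT and 10.67 to 10.79 in HET, and no marker had a mean at or under 0. Its part in the Gfap difference was not tested. In whole tissue, more cells of a type and more RNA per cell cannot be told apart. The gene (ENSMUSG00000020932, chromosome 11, 102887336 to 102900912, mm10) overlaps Gm26668 on the other strand. Gm26668 had a mean of 4.41, far under Gfap on this per-length scale, and a KO against WT difference of 0.04 (adjusted p = 0.865).

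Among the members tested, 1 of 9 was called in KO against WT, where 1.00% of all genes tested were (0.279% higher), and 1 of 9 in KO against HET (0.118% of all genes, 0.0295% higher). The median difference of the 9 was -0.00 in KO against WT and 0.03 in KO against HET, and over all genes it was 0.01 and 0.00. In HET against WT limma called 0 of 9 (0.00422% of all genes), and 0 of 9 had an unadjusted p under 0.05. The loss of 1 copy of Tmem106b came with no called difference in any member, with a median of -0.04 over the members and differences from -0.37 (Timp1) to 0.00 (Cd44).

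**Figure D1:**
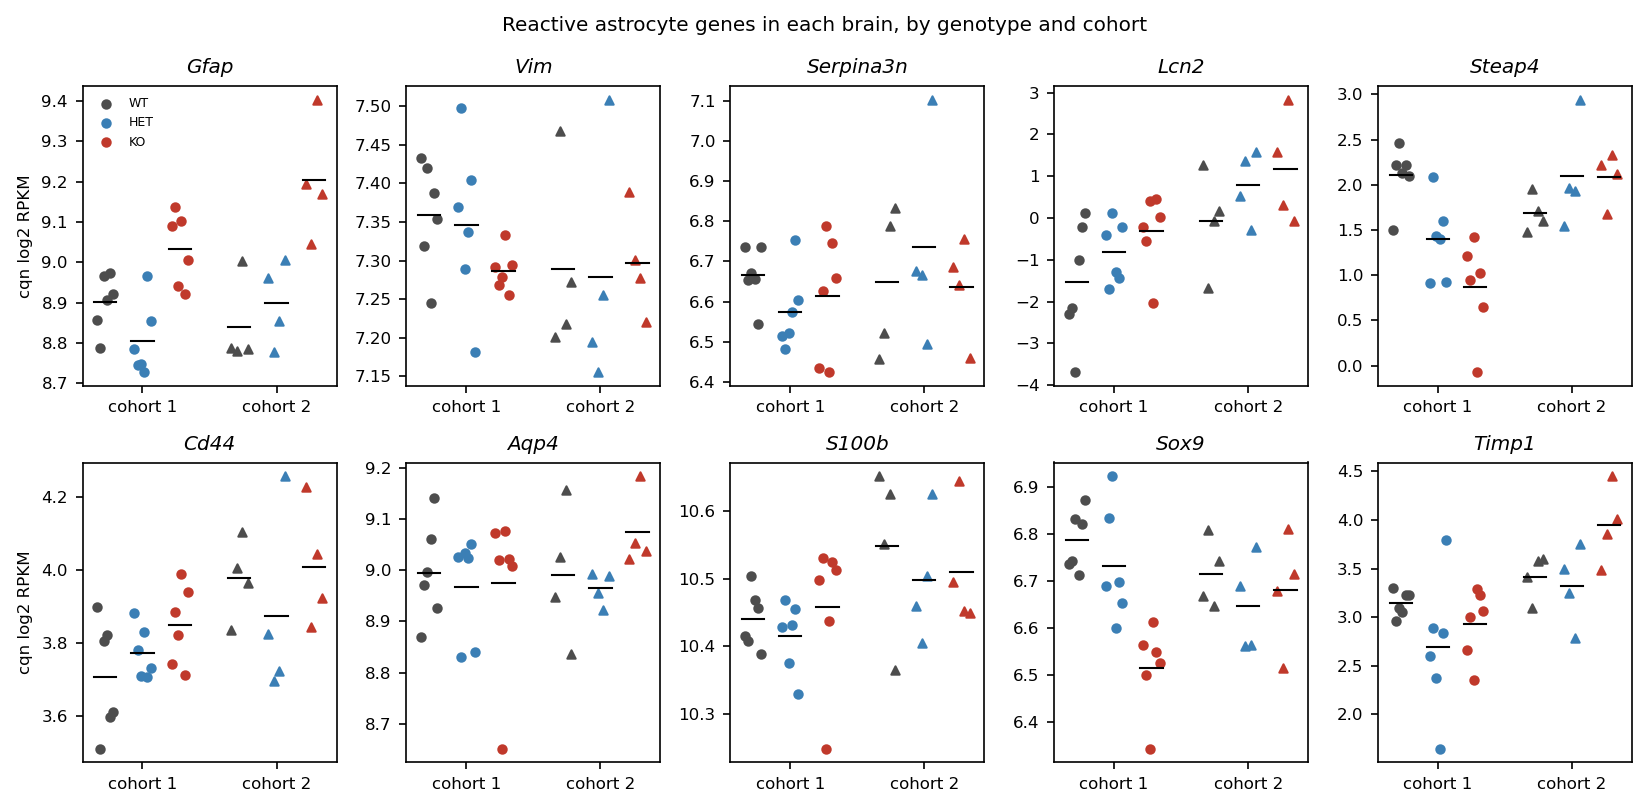
Deposited log2 values (vertical axes, a separate scale per gene) of the 10 genes in each of 30 brains; circles are cohort 1 and triangles cohort 2, colours are genotypes and bars are group means. The mean of Gfap in KO lies above that of WT in both cohorts, with overlapping ranges in cohort 1. Steap4 and Sox9 in KO lie below every WT brain in cohort 1 but not in cohort 2.

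Inside cohort 2 Gfap was the member that rose, and its KO brains stood apart from both other genotypes. The 4 KO brains had 9.04, 9.17, 9.19 and 9.40, the 4 WT brains 8.78, 8.78, 8.79 and 9.00, and the 4 HET brains 8.78, 8.85, 8.96 and 9.01. All KO values were above all WT and HET values. How many of all genes have separate ranges was not counted, here or for the separate ranges given below. The rise against WT was 0.36 ± 0.07 (limma, adjusted p = 0.0278), 28.5% on the linear scale. It was the 1 call among 9 members, where 0.0506% of all genes tested were called (0.00422% higher, which is Gfap alone). The size held without any 1 mouse (0.30 to 0.42), but the call did not: the adjusted p was 0.195, 0.155 and 0.0581 without KO replicate 4, 9 or 10, and 0.108, 0.0935 and 0.106 without WT replicate 1, 7 or 10. KO against HET stood at 0.31 ± 0.07 (limma, adjusted p = 0.233), with 0 of 9 members called (0.00422% of all genes) and 2, Gfap and Timp1, at an unadjusted p under 0.05.

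In cohort 1 the Gfap difference was smaller and did not pass. The 6 KO brains ran from 8.92 to 9.14 (median 9.05) and the 6 WT brains from 8.79 to 8.97 (median 8.91). All 6 KO brains were above the WT mean and 4 were above every WT brain. KO against WT was 0.13 ± 0.05 (limma, adjusted p = 0.221), and KO against HET 0.23 ± 0.05 (adjusted p = 0.0657). The difference between the cohorts, 0.23 ± 0.09 in log2, did not pass either (limma, adjusted p = 0.443).

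Steap4 and Sox9 fell in KO brains of cohort 1, and neither did so in cohort 2. They were the 2 calls among 9 members in cohort 1, both lower, where 2.49% of all genes tested were called in either direction and 1.35% lower. Steap4, a metalloreductase of iron and copper that inflammation induces, ran from 1.50 to 2.46 in the 6 WT brains (median 2.17), from 0.92 to 2.09 in HET (median 1.42) and from -0.07 to 1.42 in KO (median 0.99). The KO and WT ranges were separate, and all 6 HET brains lay below the WT mean. The fall was -1.24 ± 0.25 (log2 ± SE; limma, adjusted p = 0.00610), which is -57.7% on the linear scale. HET against WT stood at -0.70 ± 0.25 (adjusted p = 0.474).

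Steap4 (chromosome 5, 7960472 to 7982213, mm10) was low, with a mean of 1.66, a level that 44.0% of all genes in the table do not exceed. The lowest KO value, -0.07 in KO replicate 5, is a number that 1679 other genes of that library share, so Steap4 could not be told apart from them there. Without that mouse the fall was -1.07 ± 0.24 (limma, adjusted p = 0.0204). The other KO values of cohort 1 were shared too, each with 10 to 61 other genes of its library. The HET values there were shared with 4 to 70 and the WT values with 1 to 10. In cohort 2 the order was the other way: KO had 1.68, 2.11, 2.22 and 2.33, WT 1.47, 1.60, 1.71 and 1.96, and HET 1.54, 1.93, 1.97 and 2.94. There 3 of 4 KO brains lay above every WT brain, and the difference was 0.43 ± 0.30 (limma, adjusted p = 0.980). The cohorts differed by 1.67 ± 0.39 in the KO against WT difference, which did not pass over all genes (limma, p = 0.000229, adjusted p = 0.123), so a difference between cohorts was not called.

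Sox9, a transcription factor that keeps astrocyte identity, ran from 6.71 to 6.87 in the 6 WT brains of cohort 1 (median 6.78), from 6.60 to 6.92 in HET (median 6.69) and from 6.34 to 6.61 in KO (median 6.54). Every KO brain was below every WT brain, and HET overlapped both. The fall was -0.27 ± 0.05 (limma, adjusted p = 0.00631), -17.2% on the linear scale, and against HET it was -0.22 ± 0.05 (adjusted p = 0.0824). In cohort 2 the 4 KO brains had 6.51, 6.68, 6.71 and 6.81, and the 4 WT brains 6.64, 6.67, 6.74 and 6.81, so the ranges overlapped. The difference there was -0.02 ± 0.07 (adjusted p = 0.999). Over both cohorts Sox9 stood at -0.17 ± 0.05 (adjusted p = 0.0883), and at -0.20 ± 0.04 without KO replicate 9 (adjusted p = 0.0196). The difference between cohorts, 0.25 ± 0.09, did not pass (limma, adjusted p = 0.412). The gene (ENSMUSG00000000567, chromosome 11, 112782224 to 112787760, mm10) overlaps no other gene of the table.

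Some markers of vessels and meninges, and 1 of the choroid plexus, fell in the same comparison. In KO against WT of cohort 1, 4 of 8 endothelial markers fell (Pecam1, Cldn5, Tek and Kdr; list median -0.22; Slco1a4 at 0.20 and Ly6c1 at 0.14), as did 5 of 8 meningeal fibroblast markers (list median -0.28, Col3a1 -0.94) and 1 of 8 choroid plexus markers (Folr1, -0.68; list median -0.45). The summed endothelial level ran from 9.99 to 10.14 in KO and from 10.36 to 10.45 in WT of that cohort, with separate ranges. The meningeal sum ran from 9.21 to 9.36 in KO and from 9.37 to 9.64 in WT, also separate, and the choroid plexus sum from 12.10 to 12.93 in KO and from 12.84 to 13.03 in WT, which overlap. In cohort 2 limma called 0 members of the 3 lists, with 1, 4 and 0 at an unadjusted p under 0.05, and the list medians were 0.02, 0.16 and 0.16. No marker of the 3 lists had a mean at or under 0. Their part in the Steap4 and Sox9 differences was not tested.

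**Figure D2:**
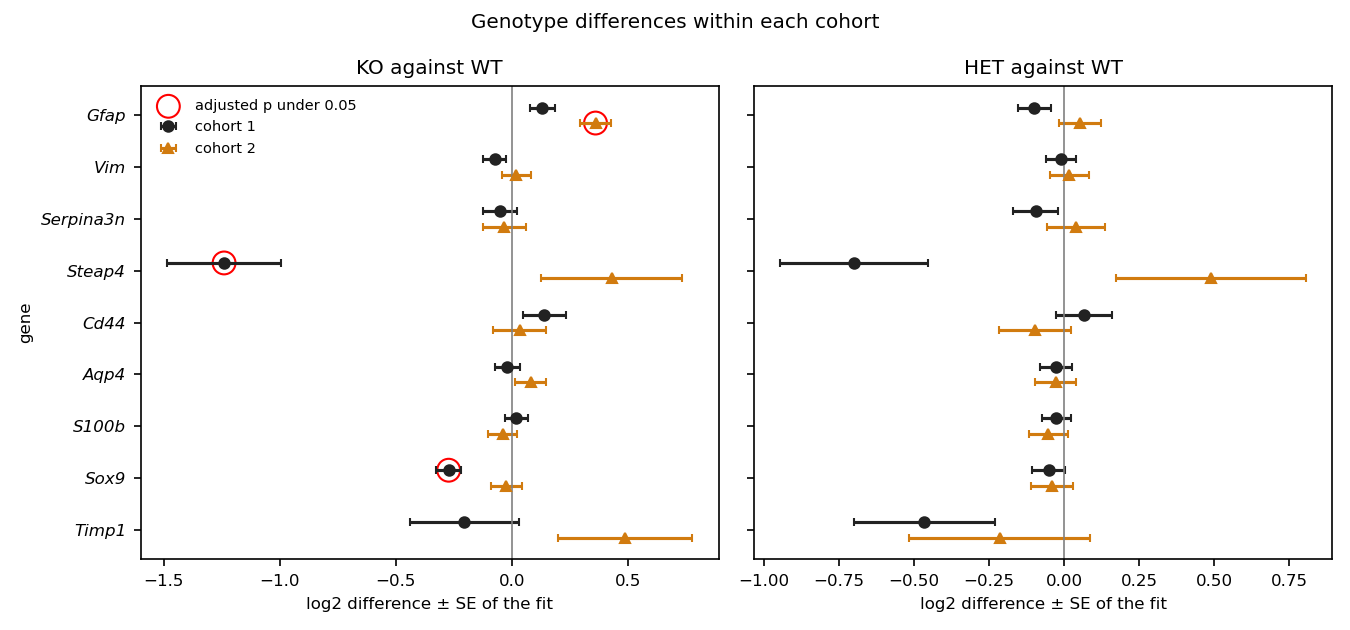
Log2 differences (horizontal axis) ± SE of the fit for the 9 genes that passed the filter, KO against WT at left and HET against WT at right; black circles are cohort 1, orange triangles cohort 2, and red rings mark an adjusted p under 0.05. Steap4 stands at -1.24 in cohort 1 and 0.43 in cohort 2, Gfap is above 0 in both, and no HET difference is ringed.

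The remaining members did not pass in any genotype comparison. Vim, the filament protein that pairs with GFAP, had medians of 7.34 in WT, 7.31 in HET and 7.29 in KO, with ranges of 7.20 to 7.47, 7.16 to 7.51 and 7.22 to 7.39. All 3 ranges overlapped, and KO against WT stood at -0.04 ± 0.04 (limma, adjusted p = 0.773). Whether Vim and Gfap differ in response was not tested. Serpina3n, a secreted serine protease inhibitor and a frequent marker of reactive astrocytes, ran from 6.46 to 6.83 in WT, 6.48 to 7.10 in HET and 6.42 to 6.79 in KO, with a difference of -0.04 ± 0.06 (adjusted p = 0.830).

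Aqp4, the water channel of astrocyte endfeet, ran from 8.84 to 9.16 in WT, 8.83 to 9.05 in HET and 8.65 to 9.18 in KO, and KO against WT was 0.02 ± 0.04 (limma, adjusted p = 0.899). In cohort 2 its 4 KO brains lay above the 4 HET brains, at a difference of 0.11 ± 0.07 that did not pass (limma, adjusted p = 0.998). S100b, a calcium-binding protein, was the highest member per unit length, with ranges of 10.36 to 10.65, 10.33 to 10.63 and 10.25 to 10.65 in WT, HET and KO, and a KO against WT difference of -0.00 ± 0.04 (adjusted p = 0.981). It overlaps Dip2a on the other strand, at -0.08 (adjusted p = 0.0962). Of 10 oligodendrocyte markers, of a cell type that also makes S100b, 9 fell in KO against WT (list median -0.24). Of all genes tested, 1.00% were called there in either direction. The part of oligodendrocytes in the S100b values was not tested. The summed oligodendrocyte level was 13.25 to 13.40 in KO and 13.45 to 13.57 in WT of cohort 1, and 13.34 to 13.49 against 13.57 to 13.69 in cohort 2.

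Cd44, the hyaluronan receptor, and Timp1, an inhibitor of matrix metalloproteases, passed between cohorts and in no genotype comparison. Cd44 ran from 3.51 to 3.99 over the 18 brains of cohort 1 and from 3.70 to 4.26 over the 12 of cohort 2. Timp1 (chromosome X, 20870166 to 20874735, mm10) ran from 1.65 to 3.79 and from 2.78 to 4.45. Cohort 2 against cohort 1 was 0.18 ± 0.06 for Cd44 (limma, adjusted p = 0.0376) and 0.58 ± 0.16 for Timp1 (adjusted p = 0.0124). They were 2 calls among 9 members, both higher in cohort 2, and 17.5% of all genes tested were called between the cohorts (8.09% higher). The Cd44 call was lost when any of 11 mice was left out (KO replicates 3, 4, 6 and 9, WT replicates 3, 6, 7, 8, 9 and 10, and HET replicate 8), at values from 0.15 to 0.18 and adjusted p from 0.0509 to 0.133.

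Timp1 overlaps Syn1, a far more abundant gene at a mean of 10.57 on the other strand, which was lower in cohort 2 (-0.12, adjusted p = 0.00108). In cohort 2 the Timp1 values were 3.49, 3.86, 4.01 and 4.45 in KO, and 3.09, 3.41, 3.57 and 3.59 in WT. The KO against WT difference there was 0.49 ± 0.29 (limma, adjusted p = 0.948) and in cohort 1 -0.21 ± 0.24 (adjusted p = 0.753). Of the 4 KO brains, 3 lay above every WT and every HET brain of that cohort. Against HET the Timp1 difference was 0.44 ± 0.19 over both cohorts (limma, p = 0.0272, adjusted p = 0.495) and 0.70 ± 0.29 in cohort 2 (p = 0.0238, adjusted p = 0.998). Steap4 and S100b had cohort differences of 0.51 ± 0.21 and 0.08 ± 0.03 that did not pass (adjusted p = 0.0915 and 0.0831), and S100b passed without WT replicate 10 (0.10, adjusted p = 0.0335).

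Lcn2, the iron-siderophore binding protein lipocalin-2, which rises steeply in many inflamed brains, was low. Its mean was -0.28, and in 15 of 30 brains its value was shared with over 100 other genes of that library, so Lcn2 could not be told apart from them there. It ran from -3.69 to 1.28 in WT, from -1.69 to 1.58 in HET and from -2.04 to 2.83 in KO, with wide overlap. With no filter on low values KO against WT was 1.20 ± 0.46 (limma, adjusted p = 0.350), and cohort 2 against cohort 1 was 1.40 ± 0.39 (adjusted p = 0.0196). The highest value, 2.83, was in KO replicate 9, the brain that also had the highest Gfap (9.40), Aqp4 (9.18) and Timp1 (4.45).

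By sex, limma called 0 of 9 members (0.333% of all genes), and 2, Serpina3n and Aqp4, had an unadjusted p under 0.05. Aqp4 was 0.11 ± 0.03 higher in females (adjusted p = 0.167) and Serpina3n -0.11 ± 0.05 (adjusted p = 0.341). For the cohort comparisons not yet given, limma called 0 of 9 members in HET against WT of cohort 1 (0.00422% of all genes; Steap4 alone had an unadjusted p under 0.05) and of cohort 2 (0.00844%; 0 members). KO against HET of cohort 1 had 0 of 9 (0.211%; Gfap, Steap4 and Sox9 at an unadjusted p under 0.05). The change of the KO against WT difference between cohorts also had 0 of 9 (0.0338%; the same 3 genes), as did that of HET against WT (0%; Steap4).

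Other genes of astrocyte reactivity mostly did not pass. Among 6 further genes shared by many reactive states, 0 were called in KO against WT (limma, 1 at an unadjusted p under 0.05; list median -0.07). In cohort 1 Cp, the copper-carrying ferroxidase ceruloplasmin, fell by 0.22 ± 0.06 on the log2 scale (adjusted p = 0.0334), and the receptor subunit Osmr stood at -0.24, Aspg at -0.29 and Hspb1 at -0.23. In cohort 2 these 6 had a median of 0.19, with 0 called and 1 at an unadjusted p under 0.05.

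Of 13 genes that neuroinflammation induces in astrocytes, limma called 0 in KO against WT (4 at an unadjusted p under 0.05; median -0.01). Against HET 1 rose, the complement component C4b, at 0.29 ± 0.05 (adjusted p = 0.0142), and in cohort 1 alone it rose against HET by 0.33 (adjusted p = 0.0313). Against WT it stood at 0.18 (adjusted p = 0.128). Fkbp5, a chaperone induced by glucocorticoids, rose in KO against WT of cohort 1 (0.46, adjusted p = 0.0177) and stood at 0.06 in cohort 2. Of 10 tested genes that ischemia induces in astrocytes, 0 were called in KO against WT (limma, 2 at an unadjusted p under 0.05; median 0.08), and the prostaglandin synthase Ptgs2, which neurons also make, fell in cohort 1 (-0.37, adjusted p = 0.0443), also against HET (-0.49, adjusted p = 0.0399).

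Genes of resting astrocytes kept close to WT. Of 20 homeostatic genes, limma called 0 in KO against WT (2 at an unadjusted p under 0.05; median -0.00), with the glutamate transporters Slc1a2 at 0.01 and Slc1a3 at -0.08, Aldh1l1 at -0.05 and glutamine synthetase, Glul, at -0.02. Their summed level was 14.61 to 14.70 in KO and 14.61 to 14.75 in WT. Of 9 other intermediate filament and linker genes 0 were called (limma, 0 at an unadjusted p under 0.05), among them Nes at 0.07 and Synm at -0.05.

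Signalling genes upstream of reactivity had 0 of 18 called in KO against WT (limma, 3 at an unadjusted p under 0.05; median 0.01), with Stat3 at 0.05, Jak1 at -0.01, Jak2 at -0.00 and Il6st, the shared receptor of interleukin-6 signals, at -0.08. In cohort 1 the receptor Tgfbr2 fell (-0.28, adjusted p = 0.00304). Among 26 tested partners of the members, 1 fell in KO against WT, Sox10 (-0.34, adjusted p = 0.000613), a SOX factor of oligodendrocytes. In cohort 1 the matrix metalloproteases Mmp2 (-0.47, adjusted p = 0.00610) and Mmp14 (-0.64, adjusted p = 0.000168), targets of TIMP proteins, fell with it (-0.45). In cohort 2 limma called 0 of 26 (4 at an unadjusted p under 0.05), and Mmp14 stood at 0.25.

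**Figure D3:**
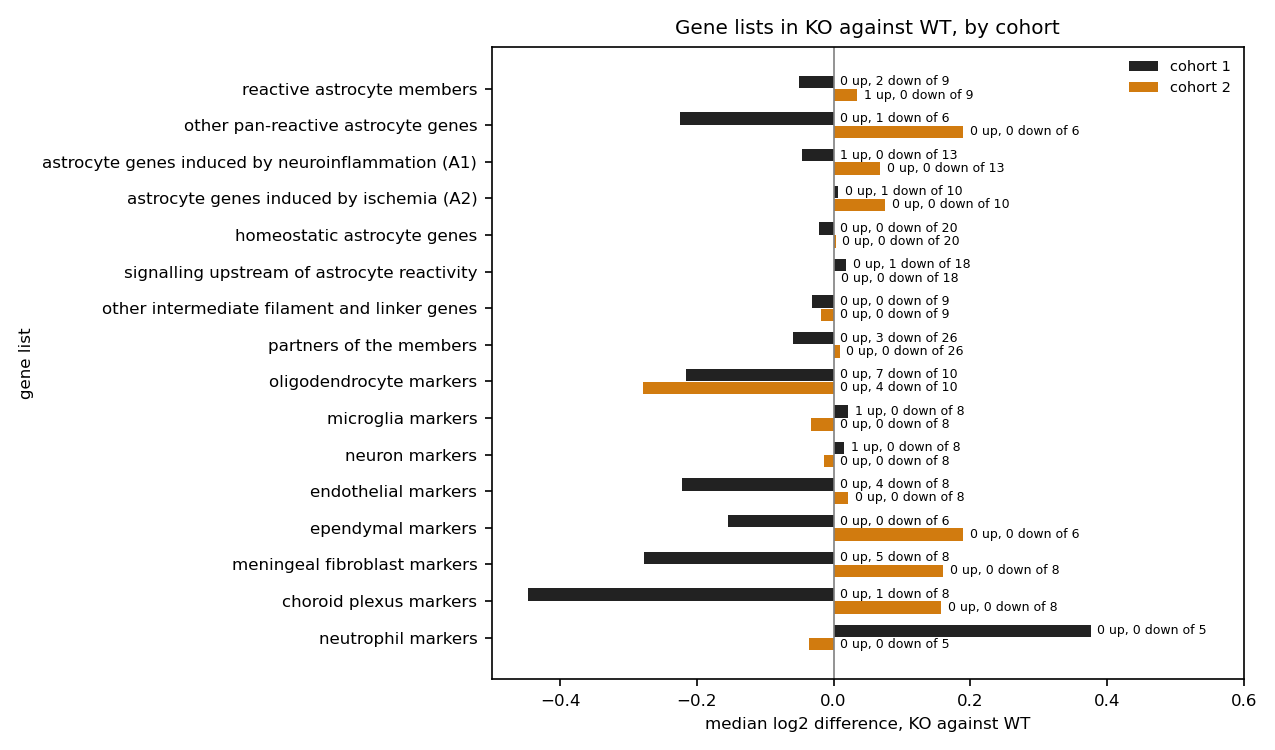
Median log2 difference of each gene list (horizontal axis) in KO against WT, black bars for cohort 1 and orange for cohort 2, with the number of genes called up or down of those tested beside each bar. The lists of endothelial, meningeal and choroid plexus markers are below 0 in cohort 1 (-0.22, -0.28, -0.45) and above 0 in cohort 2, and the oligodendrocyte list is below 0 in both.

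The members that passed the filter varied more between mice of one genotype and cohort than most genes of like level in 7 of 9 cases. The spread (SD within genotype and cohort) of Serpina3n, 0.15, was above that of 90.7% of the 3399 genes within 0.5 log2 of its mean, that of Aqp4, 0.11, above 91.9% of 1353 genes, and that of Gfap, 0.10, above 87.4% of 1402. Steap4 (0.42) and Cd44 (0.15) were less variable than most genes of their level, above 28.1% and 18.8%. For Lcn2 the comparison rests in part on such shared values.

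Over the 30 brains, 0 of the 36 pairs of members had an adjusted p under 0.05 for Pearson's r in the values. In the residuals after genotype, sex, cohort and RNA integrity 7 had one, with limits given below. In values the closest was Gfap with Timp1 (r = 0.56, permutation p = 0.00155, adjusted 0.0558; Spearman's rho = 0.43, permutation p = 0.018, adjusted 0.13). It was 0.36 within cohort 1 (18 brains) and 0.79 within cohort 2 (12 brains), and 0.41 without the 2 brains farthest from the median of Gfap. Steap4 with Sox9 had r = 0.50 (permutation p = 0.00475, adjusted 0.057) and rho = 0.59 (permutation p = 0.0006, adjusted 0.0216), with 0.58 within cohort 1, 0.41 within cohort 2 and 0.53 without the 2 farthest brains. Aqp4 with S100b had r = 0.51 (permutation p = 0.00414, adjusted 0.057) and rho = 0.30 (permutation p = 0.105, adjusted 0.372), 0.68 within cohort 1, 0.31 within cohort 2, and 0.36 without the 2 brains farthest from the median of Aqp4.

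The 7 pairs in the residuals were all positive, each with an adjusted permutation p of 0.0447. The permutations shuffled the residuals as if no terms had been fitted, so these p values are likely too small. Whether any of the 7 pairs would pass with the fitted terms allowed for was not tested. The pairs were Gfap with Timp1 (r = 0.54), Sox9 (0.48) and Steap4 (0.48), Sox9 with Timp1 (0.51) and Vim (0.47), Aqp4 with S100b (0.52), and Vim with Cd44 (0.47). The fit behind the residuals had no genotype by cohort term, so any change of a genotype difference between cohorts stays in them. The part of such changes in these r was not tested. Gfap with Sox9 had r = -0.14 in the values, -0.44 within cohort 1 and 0.26 within cohort 2. Gfap with Steap4 had 0.05, -0.36 and 0.46 in the same order.

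**Figure D4:**
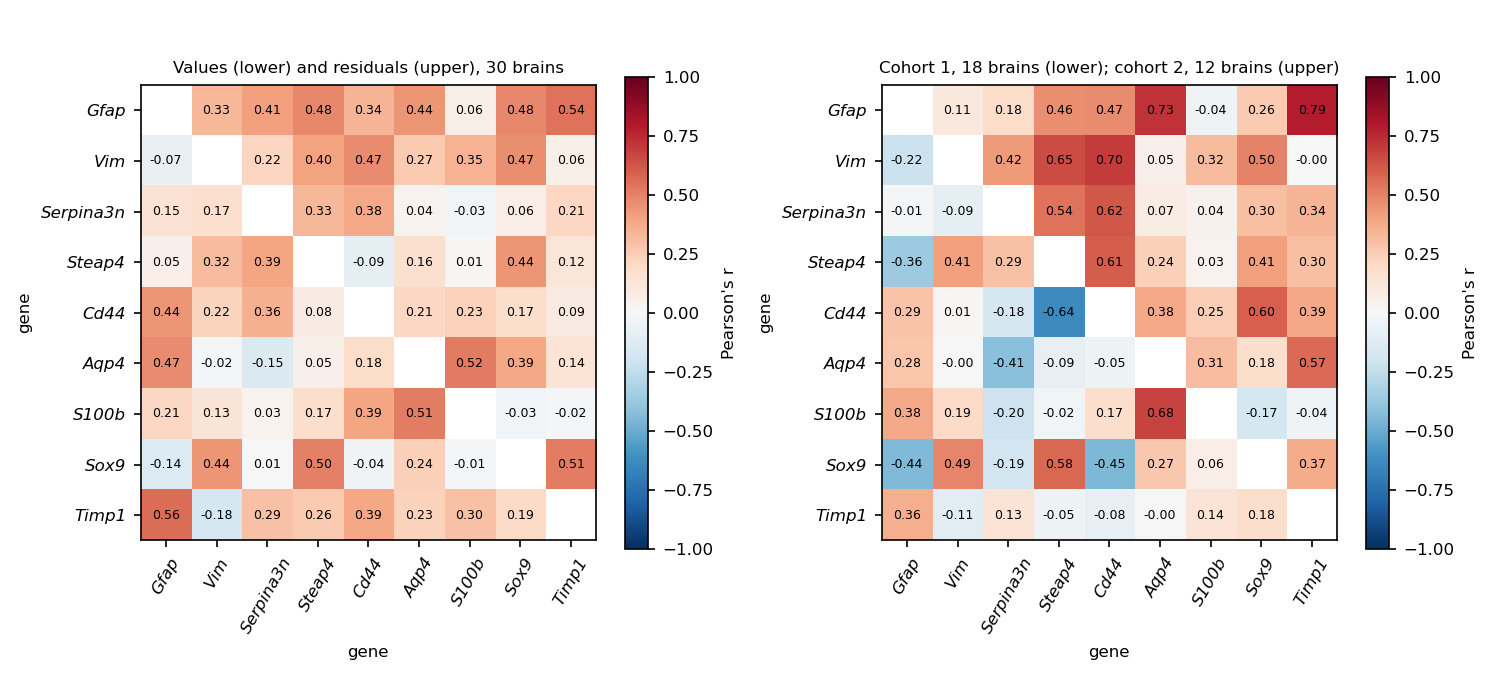
Pearson's r between the 9 genes that passed the filter (both axes list genes; colour is r). At left, values lie below the diagonal and residuals after genotype, sex, cohort and RNA integrity above it, over 30 brains; at right, cohort 1 lies below and cohort 2 above. Gfap with Timp1 is 0.56 in values and 0.54 in residuals.

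As a description, the genes whose residuals over the 30 brains followed a member most closely were mostly not astrocyte markers. For Gfap they were Gm13420 (r = 0.78), the chemokine Cxcl16 (0.72) and the lysozyme Lyz2 (0.71), both of which are made by microglia and other myeloid cells. For Steap4 they were the RNA-binding proteins Zfp36l2 (0.76) and Zfp36l1 (0.72) with the basement membrane collagen Col4a2 (0.74) between them, and for Sox9 they were Gm26669 (0.77), Tprkb (0.77) and the pericyte receptor Pdgfrb (0.76). Aqp4 was followed by Unc5b (0.76), the endothelin receptor Ednrb (0.72), which astrocytes make, and Cd300e (0.70), and S100b by Gria4 (0.75), Eapp (0.74) and the septin Sept4 (0.74). The closest genes were Csf2rb2 for Vim (0.72), Slc38a6 for Serpina3n (0.71), Rpap2 for Cd44 (0.75) and RP24-443M8.1 for Timp1 (0.73). These values were the highest over the 23695 genes tested and carry no test. The residuals again hold any change of a genotype difference between cohorts.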

How the data were processed

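RNA of 30 mouse brains was sequenced by the authors, 1 library a mouse. The submitters' processing notes name TopHat2 2.0.12, Bowtie 1.1.0 and the mm10 build. No source used here gives the counter, its strand setting, the annotation release or any gene filter. The deposited values are log2 RPKM after conditional quantile normalization, as the name of the deposited table gives them. A difference of values was read as a log2 fold change. No pseudocount was added here, and no source used here says whether the deposited values already hold one. Every sample column was matched to a mouse by its title, and the positions of 8 members equal those in the GENCODE annotation of that build (Steap4 and Aqp4 differ).

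The 10 members and the other gene lists were chosen with earlier results of these data known. Genes with a mean above 0 (23695 of 34871) were fitted in limma 3.58.1 (R 4.3.3), with eBayes and an intensity trend, over all 30 libraries. Terms were genotype, sex, cohort and RNA integrity number, or, for comparisons inside a cohort, genotype by cohort means with sex and integrity number. Tests are two-sided, p values are adjusted by Benjamini-Hochberg over all genes fitted, and SE are those of the fit. The fit was tested on simulated data with independent normal noise and no cohort, sex or integrity effects. That run does not show how often a difference would be missed in the real data. Correlations used 100000 permutations. The genes named are all members, each called gene of the lists, otherwise up to 4 of a list in the order written, and the 3 genes closest to a member in the residuals. Of the list genes called, those called only between cohorts and the markers of other cell types are given in part. Alternatives changed covariates, samples, filter, scaling, weights, variance prior and single mice. Promoters are from RefSeq (GRCm38.p6); 8 of 10 members were matched, Sox9 was not in the table and Aqp4 was not used.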

Additional observations from a re-analysis of the deposited data

Results flagged for a closer look

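Far values were looked for in 90 sets (10 members in 3 genotypes, over both cohorts and in each), and 7 were found; the limit used flags about 1 in 20 sets by chance, and the sets overlap, so 1 mouse can count more than once. Aqp4 and S100b were lowest in the same mouse, KO replicate 3, at 8.65 and 10.25, where the nearest KO brains had 9.01 and 10.44; both were far values over all KO brains and within cohort 1. Serpina3n and Cd44 were highest in the same mouse too, HET replicate 8, at 7.10 and 4.26, with the nearest HET brains at 6.75 and 3.88. Over all 30 brains this mouse also had the highest Vim (7.51) and Steap4 (2.94), which were not far values by the same measure. Gfap was far above the other cohort 2 WT brains in WT replicate 9, at 9.00 with the nearest at 8.79.

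Among the genes of the lists, 3 differed between cohorts in their KO against WT difference by the interaction test in limma. The differences of cohort 2 minus cohort 1 were 0.90 for Mmp14 (adjusted p = 0.0116; -0.64 in cohort 1 and 0.25 in cohort 2), 0.90 for the endothelial tight junction gene Cldn5 (adjusted p = 0.0338; -0.80 and 0.11) and 0.71 for Igf2 (adjusted p = 0.0348; -0.31 and 0.41).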

How the results depend on the processing

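No called direction of a member turned in any alternative; of 4442 member values under alternatives, 21 lost a call, 5 gained one and 141 changed sign with no call on either side. Gfap in KO against WT and against HET, Steap4 and Sox9 in cohort 1, and Timp1 between cohorts kept their calls wherever they were tested. Steap4 has a mean under 3, so with genes above 3 only, 1 member was called in KO against WT of cohort 1 in place of 2. In KO against WT of cohort 2, 1 member (Gfap) was called, and 0 with only that cohort in the fit (0.36, adjusted p = 0.501), with array weights (0.37, 0.0549) or with no intensity trend (0.36, 0.0634); leaving out single mice gave 0 to 1. Between cohorts, 2 members were called, 1 with array weights and 1 to 2 without single mice (Cd44 lost without 11 mice, S100b gained without WT replicate 10). In KO against HET of cohort 1, 0 members were called, 1 (Gfap) with array weights, and 0 to 1 without single mice (1 without KO replicate 7). Over both cohorts KO against WT gave 1 to 2 (Sox9 added without KO replicate 9). By sex, 1 member (Aqp4) was called with no filter on low values, where 9087 genes were called against 79, with 41 for sex alone in the model or no trend. The cause was not tested. The 0 members called in the other comparisons stayed 0.

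Counts over all genes moved by over 1.5 times in KO against WT (237; 144 with genotype alone, 114 with only the 2 genotypes in the fit, 138 to 388 without single mice), in HET against WT (1; 4 with genotype alone, 3 with no integrity term, 1 to 3) and in KO against HET (28; 43 with array weights, 24 to 44). In KO against WT of cohort 1 single mice moved the count of 591 to between 329 and 683, and of cohort 2 the count of 12 to between 4 and 20, with 4 when that cohort was fitted alone. In KO against HET of cohort 1 the 50 became 12 with that cohort alone, 18 with no filter, 148 with array weights and 22 with no trend. For HET against WT of cohort 2 the 2 became 1, and for KO against HET of cohort 2 the 1 became 2 with quantile normalization or 3 with either filter. The 8 genes that differed between cohorts in KO against WT became 5 with array weights, 2 with no trend and 0 to 14 without single mice. No paired analysis was possible because the labels give no replicate numbers shared between groups. Scaling moved the median of all genes by at most 0.0042. The deposited values were already normalized, with a highest value of 14.17 in every library and medians of 2.82 to 2.91. A further scaling therefore had little to move.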
